A study of Arabidopsis thaliana with 18 samples.

Results

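CONSTANS (CO, AT5G15840) and 5 of its close relatives, COL1 (AT5G15850), COL2 (AT3G02380), COL3 (AT2G24790), COL4 (AT5G24930) and COL5 (AT5G57660), were examined for ChIP-seq peaks of 2 floral repressors in Arabidopsis seedlings, SVP (Short Vegetative Phase) and FLC (Flowering Locus C). The members were fixed by name, with earlier results of these data known. A member counted as having a peak in a list when the authors had assigned a peak of that list to it. Of these 6 genes, 3 had a peak in at least 1 of the 4 peak lists (COL1, COL4 and COL5) and 3 had none (CO, COL2 and COL3). Among all 27444 annotated protein-coding genes, 3.84% were assigned a peak in at least 1 list. In all, 4 peaks were assigned to a member, out of 246, 523, 419 and 315 peaks in the lists of SVP:GFP in flc-3, SVP:GFP in WT, FLC in svp-41 and FLC in WT.

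CO is a B-box zinc finger protein with a carboxy-terminal CCT domain, which activates the florigen gene FT in the leaf vasculature under long days. Its transcription follows the circadian clock and its protein is stabilised by light, so that the gene reads day length. The CO-like proteins share this domain order, and SVP and FLC are MADS-box transcription factors that hold flowering back by repressing FT and the floral integrator SOC1 and that typically contact CArG-boxes.

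The series comprised 18 immunoprecipitated samples in 6 groups of 3, all from seedlings 2 weeks old whose ecotype is labelled Columbia-0 FRI (Columbia-0 with an active FRI allele), although the sample titles of the 35S:GFP plants do not name FRI. SVP was recovered with an antibody to GFP from svp-41 plants that carried the pSVP:SVP:GFP transgene, in 1 line with the flc-3 allele (SVP:GFP in flc-3) and in 1 line with functional FLC (SVP:GFP in WT). Both lines thus had a fusion driven by the SVP promoter in place of native SVP. FLC was recovered with an FLC antiserum from svp-41 FLC FRI plants (FLC in svp-41) and from SVP FLC FRI plants (FLC in WT). Plants with 35S:GFP served as the control of both SVP:GFP lists and svp-41 flc-3 FRI plants as the control of both FLC lists, so the 2 lists of each protein share their control samples. The study's methods also describe negative controls combined into a single one for peak calling and do not say whether across both proteins, so the lists of SVP:GFP and FLC may share controls as well. Day length is given as long days in the sample labels and as short days in the study's methods, which also name above-ground tissue. Each of the 4 groups other than the controls was represented by 1 list of peaks merged over its 3 samples, so no value below carries a replicate error, no test was run, and the sequencing depth is unknown.

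Every member peak came from a WT list. Of the 1131 genes assigned a peak in any list, 33.2% were in SVP:GFP in WT alone, like COL4 and COL5. A further 5.92% were in both WT lists and neither mutant list, like COL1. The study reduced the genes bound by both proteins only in WT to a smaller set after inspecting them singly. Its list of that set does not hold COL1. SVP:GFP in flc-3 had a peak at 0 of the 6 genes, where 1.02% of the 27444 annotated protein-coding genes were assigned one. For SVP:GFP in WT the count was 3 of 6 (COL1, COL4 and COL5), where 2.64% of protein-coding genes were assigned a peak. FLC in svp-41 gave 0 of 6, against 1.32% of protein-coding genes, and FLC in WT gave 1 of 6 (COL1), against 1.15%. With 6 genes and 1 list per protein and genotype, these counts are descriptions. The members were chosen with earlier results of these data known. The study had already named COL1 and COL4 as targets of SVP:GFP in WT only. The counts are therefore no independent measure of the family.

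**Figure D1:**
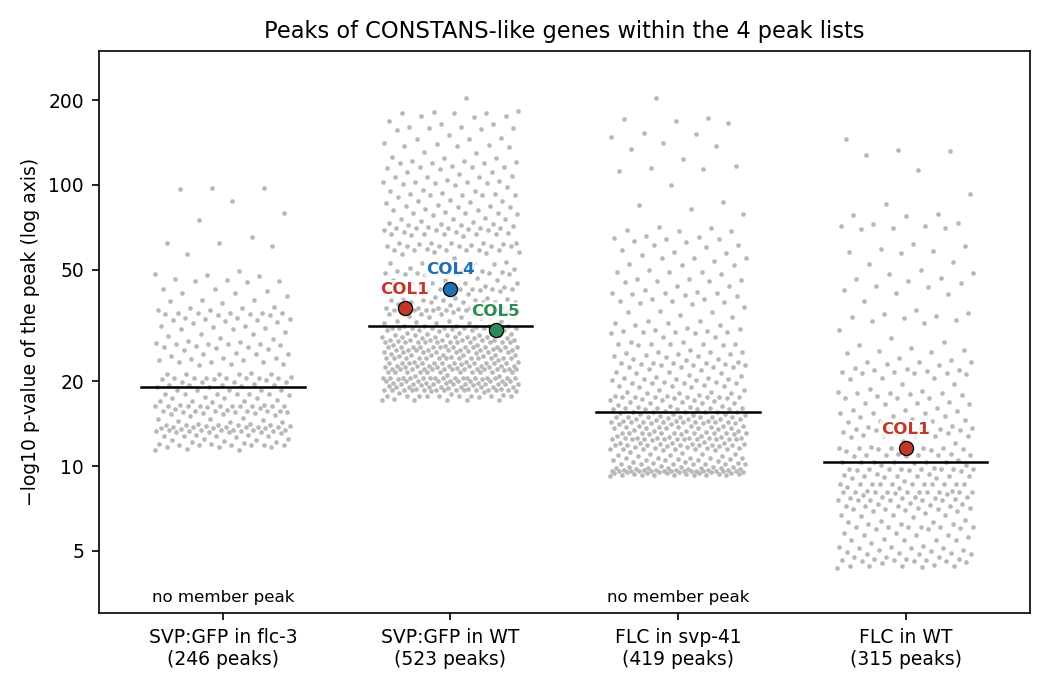
The −log10 p-value of every peak (grey points, log axis) in the 4 lists, with list medians as black lines and the peaks assigned to CONSTANS-like genes in colour. In SVP:GFP in WT the COL4 and COL1 peaks, at 42.8 and 36.4, lie above the median of 31.4 and the COL5 peak, at 30.5, just below it, while in FLC in WT the COL1 peak, at 11.6, lies above the median of 10.4.

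All 4 member peaks stood in the middle of their lists. Peaks are given by fold-enrichment, the ratio of ChIP reads to those of the control at the summit, and by the −log10 p-value of the peak caller. Tied peaks share a rank here, since 58.1% of the SVP:GFP in WT peaks and 31.7% of the FLC in WT peaks have both values in common with another peak of their list. Among the members of SVP:GFP in WT the COL4 peak was the strongest, at 4.33 for fold-enrichment and 42.8 for −log10 p-value, rank 187 of 523. COL1 followed at 4.01 and 36.4 (rank 220), and COL5 at 3.66 and 30.5 (rank 274). In the FLC in WT list the COL1 peak stood at 3.71 for fold-enrichment and 11.6 for −log10 p-value, rank 136 of 315. None of the 4 sat at the lower edge of its list, as their −log10 p-values exceeded the list minimum by 25.6 (COL4), 19.2 (COL1) and 13.2 (COL5) in SVP:GFP in WT and by 7.24 (COL1) in FLC in WT. The lists of the mutants reached down to −log10 p-values of 11.4 (SVP:GFP in flc-3) and 9.24 (FLC in svp-41), and the lists of the WT plants to 17.2 (SVP:GFP) and 4.33 (FLC).

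CO itself was assigned no peak in any list. It lies on chromosome 5 at 5170162-5173085, on the minus strand of TAIR10.1, with COL1 as its tandem neighbour upstream at 5176091-5177897 on the same strand. The genes are separated by 3005 bp and their starts lie 4812 bp apart. Within the stretch between them no list had a summit. The coding sequence of CO is 1122 bp long and that of COL1 1068 bp, and 75.3% of their aligned positions are identical, the highest value among the 15 pairs of members. COL1, a close homologue of CO whose transcript cycles over the day, was the only member assigned a peak of both proteins. Over all peaks, 27.3% of SVP:GFP in WT and 46.3% of FLC in WT overlapped a peak of the other WT list.

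The COL1 peak of SVP:GFP in WT spanned 5177724-5178147 on chromosome 5 (424 bp), with its summit at 5177930, 33 bp upstream of the COL1 start. That of FLC in WT spanned 5177805-5178080 (276 bp), with its summit at 5177980, 83 bp upstream of that start. The FLC peak lay wholly inside the SVP:GFP peak and made up 65.1% of its length. The SVP:GFP peak reached 174 bp and the FLC peak 93 bp into the COL1 gene, in both cases within the 424 bp of the gene model that precede the coding sequence. Summits of the 2 proteins were 50 bp apart, and over the 146 overlapping peak pairs of the WT lists the median distance was 22.5 bp, and 79.5% of the pairs were 50 bp apart or less. An FLC peak wholly inside the SVP:GFP peak was found in 63.7% of those pairs. The midpoints of the COL1 peaks were 7 bp apart, so the distance between summits depends on how the position of a peak is read.

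The interval that holds both COL1 summits is printed because peaks of both proteins meet at no other member. It runs from the base before the COL1 start to the base before AT5G15853, chr5:5177898-5178106 in TAIR10.1, read on the minus strand so that it leads into COL1. Capitals mark the only stretch in this interval that differs from a CArG-box by 1 letter.
COL1 upstream: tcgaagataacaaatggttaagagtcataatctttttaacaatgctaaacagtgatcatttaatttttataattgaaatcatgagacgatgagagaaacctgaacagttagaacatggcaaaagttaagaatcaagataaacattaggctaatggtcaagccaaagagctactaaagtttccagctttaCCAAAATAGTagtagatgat
Its centre lay 18 bp from the SVP:GFP summit and 68 bp from the FLC summit. A perfect CArG-box was not found in either COL1 peak, and neither peak held a G-box (CACGTG, searched on both strands) or a CE-box.

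COL1 shared its peaks with 3 other genes, the same 3 in both lists. The summits fell inside AT5G15845, a long non-coding RNA of 5211 bp on the plus strand at 5173081-5178291, 361 bp (SVP:GFP) and 311 bp (FLC) before its annotated end. This RNA is antisense to all 1807 bp of COL1 and touches CO over 5 bp, and 1 of its 5 annotated transcripts has an exon at the summits. AT5G15853, a short protein-coding gene on the plus strand, starts 177 bp from the SVP:GFP summit and 127 bp from the FLC summit. PCME (AT5G15860), which encodes a prenylcysteine methylesterase and is read toward COL1, ends 227 bp from the SVP:GFP summit and 177 bp from the FLC summit. Peaks with 4 or more assigned genes were rare, 1.15% of SVP:GFP in WT (6 of 523) and 0.952% of FLC in WT (3 of 315). COL1 and AT5G15853 are read away from each other from either side of the same 209 bp, and by position the 4 genes cannot be told apart as the gene a peak belongs to.

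**Figure D2:**
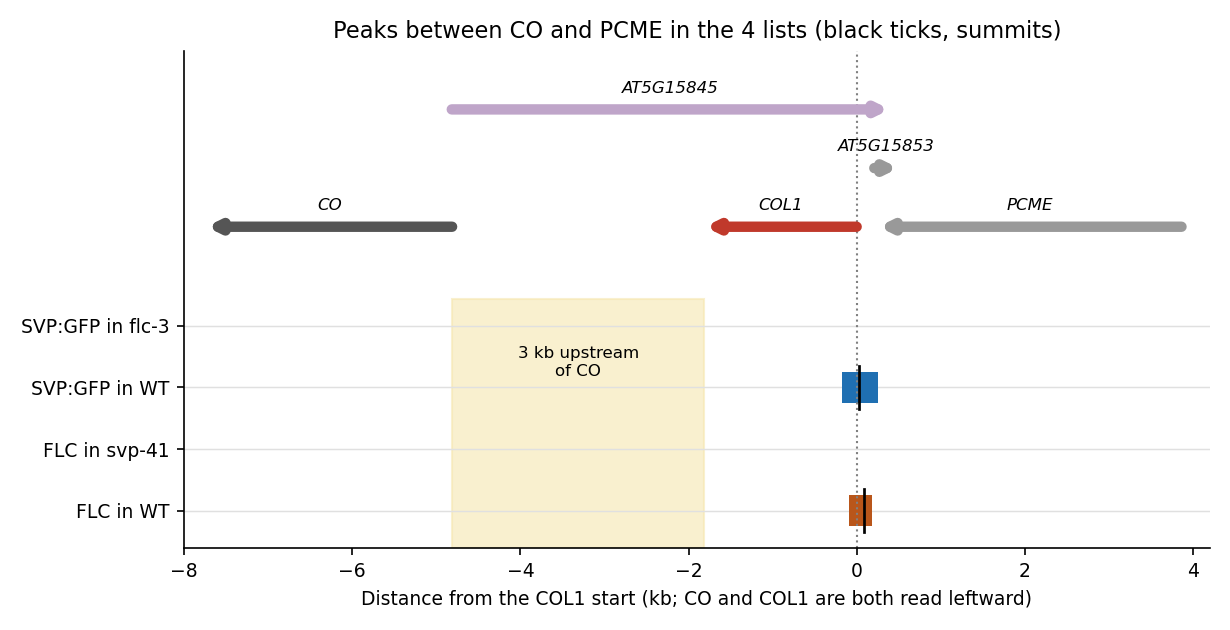
Genes from CO to PCME (arrows, direction of transcription) and the peaks of the 4 lists as bars with black ticks at the summits, against the distance from the COL1 start in kb (AT5G15843, on the strand opposite CO, is not drawn). The WT peaks overlap at the COL1 start and lie outside the shaded 3 kb upstream of CO, and neither mutant list has a peak here.

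How near these peaks come to CO was measured directly. The summits lay 4845 bp (SVP:GFP) and 4895 bp (FLC) upstream of the CO start, which is 1845 and 1895 bp beyond the 3 kb limit of the assignment. The edges of the peaks nearest to CO were 4639 bp (SVP:GFP) and 4720 bp (FLC) from it. If the upstream limit were 5 kb, CO would be assigned both COL1 peaks, making 4 of 6 members for SVP:GFP in WT and 2 of 6 for FLC in WT. The mutant lists would still have none, as their nearest summits were 709 kb (SVP:GFP in flc-3) and 54.6 kb (FLC in svp-41) from CO. The limit of 5 kb was chosen after seeing the data. A wider limit reaches more genes of every kind, and the share of all protein-coding genes at 5 kb is not given here. CO and COL1 are alike in sequence, but the 200 bp around either COL1 summit had 0 other matches in the genome at 80% identity over 100 bp. The FLC peak did have 1 weaker match to CO, 73 bp at 76.7% identity, in the part of the peak that lies within the COL1 gene. The matching bases, 5177807-5177878, also lie inside the SVP:GFP peak, although the search with that longer peak returned 0 other matches.

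COL2 and COL3 had no peak and no summit within 60 kb. COL2, the member next closest to CO in coding sequence at 71.9% identity, lies on chromosome 3 at 487069-489467. Its nearest summit was 333 kb away in SVP:GFP in flc-3 and 122 kb away in each of SVP:GFP in WT, FLC in svp-41 and FLC in WT, in peaks assigned to ZFN1 and 2 neighbouring genes in all 3. COL3, a positive regulator of light-dependent seedling development, lies on chromosome 2 at 10566836-10568145. Its nearest summit was 96.4 kb away in SVP:GFP in flc-3 and 60.3 kb away in the other 3 lists, in peaks assigned to WRKY60 and AT2G24990. Over all protein-coding genes the median distance to a summit was 215 kb in SVP:GFP in flc-3, 76.8 kb in SVP:GFP in WT, 152 kb in FLC in svp-41 and 158 kb in FLC in WT, and COL2 and COL3 lay between the quartiles of each list except COL3 in the FLC lists, which was nearer than the lower quartiles of 63.9 kb (FLC in svp-41) and 67.9 kb (FLC in WT).

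**Figure D3:**
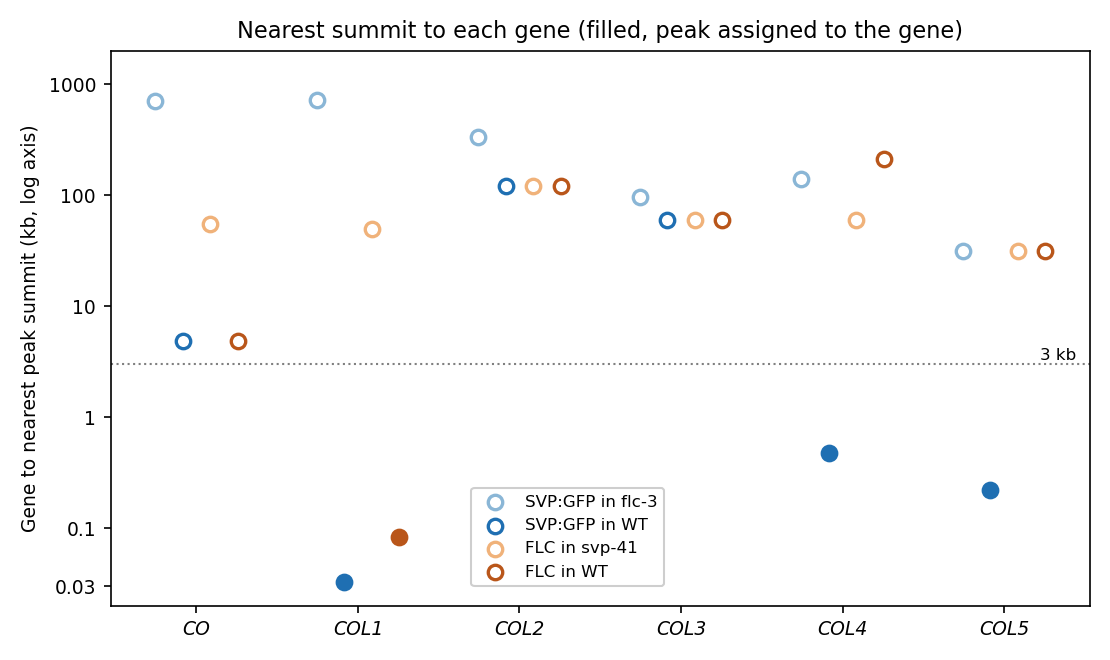
Distance in kb (log axis) from each gene to the nearest summit of each list, with filled points where the peak was assigned to the gene. The filled points lie at 0.033 and 0.083 kb for COL1, 0.472 kb for COL4 and 0.222 kb for COL5, and CO, at 4.85 and 4.90 kb in the WT lists, falls between them and the open points of the other genes, which lie at 31.5 kb or more.

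COL4, reported to repress flowering, had a peak of SVP:GFP in WT and of no other list. The peak spanned 8588733-8589329 on chromosome 5 (597 bp, width rank 273 of 523), with its summit at 8588985. COL4 lies at 8589457-8590949 on the plus strand, and its gene model holds coding sequence only, so the 472 bp between the summit and the gene are measured to the start codon. COL4 was the sole gene assigned, and 41.1% of the peaks of this list likewise had exactly 1 gene, while the nearest gene on the other side, GDU5, ended 3688 bp from the summit. The nearest summits of the other lists were 141 kb (SVP:GFP in flc-3), 59.9 kb (FLC in svp-41) and 213 kb (FLC in WT) from COL4.

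The COL4 peak differed from the other member peaks in that its centre is a repeated sequence. The 200 bp around the summit matched 17 other places in the genome at 80% identity over 100 bp, with identities of 80.4% to 91.5%, and 0 places at 95% over 150 bp. The 200 bp around the other 3 member summits had 0 matches at 80% identity over 100 bp. Copies were searched for member peaks only, so no share over all peaks of the list is given. Over the whole peak there were 52 other matches, on all 5 chromosomes, and all fell in a single stretch of 269 bp at 8588813-8589081 that contains the summit. Of these 52 places, 2 touched another peak of SVP:GFP in WT and 0 touched a peak of SVP:GFP in flc-3, FLC in svp-41 or FLC in WT. At 1 of the 2, 88.5% identical over 191 bp on chromosome 1, the peak was assigned to LNO1, AT1G55530 and AT1G55535 (fold-enrichment 2.97, rank 475). The other, 69.7% identical over 142 bp on chromosome 4, lay in a peak assigned to SKU5 (fold-enrichment 3.15, rank 420). In both the summit fell within the matching stretch, although at the SKU5 peak only at its edge (summit 7353364, stretch 7353363-7353503). Reads were mapped with each read kept at its best place, and the part that reads of the copies play in the COL4 peak was not tested.

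The 300 bp around the COL4 summit are printed to show this stretch, chr5:8588835-8589134 in TAIR10.1, plus strand, with the only stretch that differs from a CArG-box by 1 letter in capitals.
COL4 summit: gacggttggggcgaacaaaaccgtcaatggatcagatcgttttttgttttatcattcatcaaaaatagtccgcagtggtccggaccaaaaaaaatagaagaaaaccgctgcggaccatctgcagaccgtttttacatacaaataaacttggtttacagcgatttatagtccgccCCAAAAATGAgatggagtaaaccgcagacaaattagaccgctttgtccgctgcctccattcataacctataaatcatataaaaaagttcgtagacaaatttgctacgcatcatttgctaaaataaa
The marked letters lay within the repeated stretch, with their centre 28 bp from the summit. Outside this window, at 8589288-8589293 and 305 bp from the summit, the peak held the sole G-box of the 4 member peaks. GC content over the 300 bp was 39.3%, the highest of the member summits, against a median of 34.3% over the list.

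COL5, which promotes flowering when overexpressed, had the broadest member peak and the only one with its summit past the gene. The peak of SVP:GFP in WT spanned 23355800-23358156 on chromosome 5, or 2357 bp, the width rank of 13 among 523 peaks with a median width of 611 bp. It covered 72.0% of COL5 (23355337-23356989, plus strand) but not the start of the gene. Its summit at 23357211 lay 222 bp past the annotated end, and its midpoint inside the gene. COL5 was the sole gene assigned, and the next gene on that side, the non-coding AT5G08745, lay 2049 bp away on the opposite strand. GC content around the summit was 29.3%. In the 3 other lists the nearest summit was 31.5 kb from COL5, in peaks assigned to AT5G57710.

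Sequence shared among the members fell in the COL5 gene body and not at its summit. The COL5 peak had 7 other matches, of 78 to 147 bp, in CO, COL1, COL2, COL3, COL4 (2 matches) and BBX15, at identities of 76.2% to 82.1%. They lay at 23356508-23356654 and 23355800-23355880, all of it within COL5, and the 200 bp around the summit had 0 matches at 80% identity over 100 bp. Over their whole coding sequences the members other than CO, COL1 and COL2 were more distant, with 58.9% of positions identical between COL3 and COL4 and 49.9% to 55.7% for the remaining pairs.

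**Figure D4:**
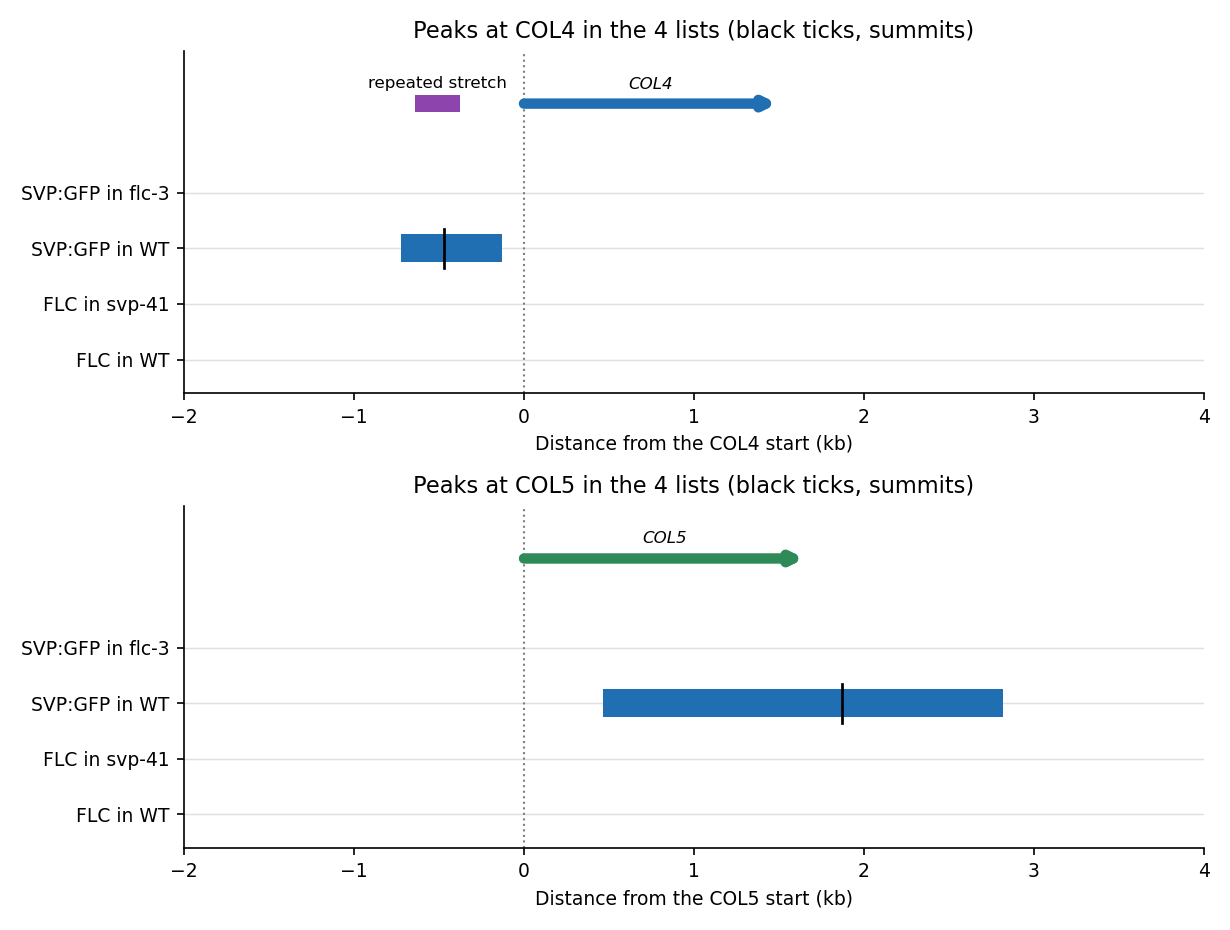
Peaks at COL4 and COL5 in the 4 lists, as bars with black ticks at the summits, against the distance from the gene start in kb. The 597 bp COL4 peak lies upstream of the gene over the repeated stretch of 269 bp (purple), the 2357 bp COL5 peak reaches from inside the gene past its end, and only SVP:GFP in WT has a peak at either gene.

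Neither the member peaks nor the members' upstream stretches held a perfect CArG-box. The count was 0 in the 4 member peaks and 0 in the 3 kb upstream of each of the 6 genes, a length in which 18.5% of protein-coding genes hold at least 1. Among all peaks, 7.65% of SVP:GFP in WT and 9.21% of FLC in WT held a CArG-box, so a peak without one was the common case. With 1 mismatch allowed, every member peak had a match, 2 in COL1, 1 in COL4 and 2 in COL5 for SVP:GFP in WT and 1 in COL1 for FLC in WT. The COL1 match of FLC in WT is also 1 of the 2 of SVP:GFP in WT. Such matches are frequent, being found in 71.5% of the SVP:GFP in WT peaks, 57.8% of the FLC in WT peaks and 31.9% of all genome windows of 300 bp. Over the 300 bp around the summit, the same length as the windows, the shares were 47.8% for SVP:GFP in WT and 59.0% for FLC in WT. The COL5 matches were 295 and 349 bp from the summit. A G-box was present in 28.5% of the SVP:GFP in WT peaks and 11.4% of the FLC in WT peaks, and in the 3 kb upstream of CO and COL4 but not of the other 4 members, where 31.7% of protein-coding genes hold 1.

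Genes with the same lists and the nearest ranks were found for the 3 members with a peak, a likeness of rank only. For COL1, among 63 genes outside its own peaks found in both WT lists and in neither mutant list, these were NAC019, a stress-related NAC transcription factor, and the adjacent CSLA14 and AT3G56010. Their peaks ranked 242 (NAC019) and 187 (CSLA14 and AT3G56010) of 523 for SVP:GFP in WT, and 128 and 144 of 315 for FLC in WT. For COL4, among 375 genes found in SVP:GFP in WT alone, PDE135 had the same rank of 187, and AT2G15950 and AT2G15960 ranked 183. COL5 shared its rank of 274 with the peptide hormone receptor gene PSKR1 and the histone chaperone gene ASF1B, and PIF4, a bHLH factor of light and temperature signalling, ranked 273.

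Peaks elsewhere in the CO family and pathway were counted over lists of related genes. Over all protein-coding genes, 3.84% were assigned a peak in at least 1 of the 4 lists. Of 11 further CO-like genes, 3 had a peak in some list. By list the count was 0 in SVP:GFP in flc-3 (1.02% of protein-coding genes), 2 in SVP:GFP in WT (2.64%), 1 in FLC in svp-41 (1.32%) and 1 in FLC in WT (1.15%). These were BBX14 (AT1G68520), with a summit inside the gene in SVP:GFP in WT (fold-enrichment 3.58, rank 289), BBX15 (AT1G25440), with one 96 bp past its end in the same list (3.11, rank 433), and BBX13 (AT1G28050). BBX13 had FLC peaks in both genotypes, with a fold-enrichment of 3.37 in svp-41 (rank 331 of 419) and 2.30 in WT (rank 280 of 315). Their summits lay 17 bp (svp-41) and 52 bp (WT) upstream of the gene, and each peak was assigned to 3 genes. BBX13 was the only CO-like gene of the 17 examined with a peak in a mutant list.

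Genes upstream of CO were counted next. Of 21 regulators of CO transcription, among them the clock genes and the CDF repressors, 2 had a peak in some list, against 3.84% of protein-coding genes. FBH4, a bHLH activator of CO, had peaks 2357 bp upstream for FLC in svp-41 (rank 197 of 419) and 2419 bp upstream for SVP:GFP in WT (rank 265). The clock gene CCA1 had 1 in SVP:GFP in WT, 2688 bp upstream (rank 490). Of 10 light receptors and regulators of the CO protein, 3 had a peak in some list, beside the same 3.84%. SPA2, which acts with COP1 in the turnover of CO, held the peak of highest −log10 p-value in SVP:GFP in flc-3 (fold-enrichment 9.27), with 6.18 in SVP:GFP in WT and 4.30 in FLC in WT, all inside the gene. The blue-light receptor gene CRY1 had a peak in SVP:GFP in WT (4.03), and the red-light receptor gene PHYB had one in FLC in WT (3.07).

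Of 10 genes listed as partners and targets of CO, 5 had a peak in some list, where 3.84% of protein-coding genes had one. The list also held TEM1 and TEM2, which encode repressors of FT. It was drawn with earlier results of these data known, and FT and SOC1 were already known to be repressed by SVP and FLC. Its count is therefore no independent measure of the CO pathway. SOC1 was in all 4 lists, with fold-enrichments of 5.54 for SVP:GFP in flc-3 against 9.45 for SVP:GFP in WT, and of 17.0 for FLC in svp-41 against 9.63 for FLC in WT. FT, the direct target of CO, was in the mutant lists alone, at 2.12 in SVP:GFP in flc-3 and 6.10 in FLC in svp-41. The summits lay 56 bp upstream of FT (SVP:GFP) and inside it (FLC). The SVP:GFP peak had a −log10 p-value of 14.4, under the minimum of 17.2 of the SVP:GFP in WT list. The FLC peak, at 39.3, was above the minimum of 4.33 of the FLC in WT list. NF-YC3, a subunit of the NF-Y complex that CO joins at DNA, had peaks in the same lists as COL1, at lower ranks. Its fold-enrichment was 2.95 in SVP:GFP in WT (rank 490 of 523) and 2.50 in FLC in WT (rank 236 of 315). Both NF-YC3 peaks were assigned to 2 genes. The FT repressor TEM1 was likewise in both WT lists, with fold-enrichments of 3.58 and 4.09 for its peaks of SVP:GFP in WT and 2.97 for FLC in WT. Its homologue TEM2 had peaks in FLC in svp-41 (3.88) and SVP:GFP in WT (3.34).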

How the data were processed

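Chromatin from 18 samples was immunoprecipitated and sequenced. The authors filtered reads with Parallel-QC, mapped them to TAIR10 with Bowtie 2 (2.0.2, best alignment kept), called peaks with MACS against negative controls (combined into a single one, per the methods), retained peaks reproducible between replicates that NarrowPeaks also detected, and assigned genes with CSAR from 3 kb upstream to 1 kb downstream. The deposited columns used were peak position, summit offset, fold-enrichment (a ratio over control) and −log10 p-value, 1 merged list for each group but the controls, with 0 value columns of other samples. The deposited p-values are those of the peak caller.

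The members and gene lists were chosen with earlier results of these data known. Gene models and sequence came from RefSeq TAIR10.1, whose coordinates place nearly all authors' assignments in the stated window. Named were the members, genes sharing or flanking their peaks, genes at the nearest summits, pathway genes with a peak, and the 3 genes of the same lists nearest in rank. CO-like names absent from RefSeq are given by their RefSeq symbol. Distances run from the summit to the gene boundary. CArG-box, CE-box and G-box were searched on both strands and copies with blastn 2.17.0, under Python 3.11.15, Biopython 1.88 and NumPy 2.4.6. The functions for positions and motifs were tested on simulated data. Coding sequences were aligned globally (Biopython). The alternatives were other p-value minima, windows, motifs, copy limits and the peak midpoint.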

Additional observations from a re-analysis of the deposited data

How the results depend on the processing

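The member counts of SVP:GFP in flc-3 and of FLC in svp-41 were 0 under each alternative run. The alternatives could not have raised them. Stricter settings only remove genes, and the summit of either list nearest to any member lay 31.5 kb away, beyond the widest window. The counts of SVP:GFP in WT ran between 2 and 4. Lists of equal length or a window of 1 kb upstream to the gene end left out COL5. The nearest gene alone left out COL1, and upstream limits of 5 or 10 kb added CO. The count of 1 for FLC in WT became 0 at a −log10 p-value of at least 20, at 1 minimum of 17.2 for the 4 lists, and with the nearest annotated gene alone, since the summit lies inside AT5G15845. It became 2, with CO, at upstream limits of 10 kb and of 5 kb, the limit of 5 kb chosen after seeing the data. By midpoints the COL1 peaks of the WT lists were 7 bp apart in place of 50. With 1 mismatch the CArG-box matches over the 4 member peaks were 6 in place of 0, with the site at 5177908-5177917 counted in both COL1 peaks. At 80% identity over 100 bp the copies were 17 in place of 0. Coding-sequence identity of CO and COL1, used in place of protein identity (which was not run) and chosen after seeing the data, was 80.1% over positions with no gap, against 75.3%. No paired analysis was possible because the lists are merged over replicates, and for the same reason no replicate could be left out. A gene without a peak is one without a reproducible call at unknown depth, and the lists differ in their minima.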
